A study of Rattus norvegicus with 10 samples.

Results

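The genes described here mark amacrine and horizontal cells, the inhibitory interneurons of the retina, and were followed in whole retinas of 3-day-old rats. The 10 genes are Gad1, Gad2, Slc6a9, Tfap2a, Tfap2b, Ptf1a, Prox1, Onecut1, Lhx1 and Calb2. They were chosen by name, and each was read from the probe set whose only gene symbol in the platform annotation was that name. All 10 were found, each with 1 probe set, among 14324 singly named genes. The values are log2 expression values, on which a difference of 1 is a doubling.

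The rats were of the strains SD (Sprague Dawley) and F344 (the inbred Fischer strain), set against each other in the study as susceptible and resistant to oxygen-induced retinopathy, a model in which high oxygen disturbs the growth of retinal vessels. Litters and their mothers entered an oxygen chamber within 12 hours of birth and spent alternating periods of 24 hours in 80% oxygen and in 21% oxygen until postnatal day 3. Controls of the same age stayed in room air. There were 2 pools of SD in cyclic hyperoxia, 3 of SD in room air, 3 of F344 in cyclic hyperoxia and 2 of F344 in room air. Each pool joined RNA of 3 rats from 2 litters and was hybridised to 1 array, so differences between individual rats are not seen, and the p-values rest on the spread between pools. The labels name no transgene or deletion in any group. RNA of a whole retina cannot tell fewer cells of a type from less RNA per cell.

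Amacrine cells shape the signals passed from bipolar to ganglion cells, and most use GABA or glycine as their transmitter. Horizontal cells feed back onto photoreceptors in the outer retina. In the mouse both types are born from progenitors that express Foxn4 and then Ptf1a, and in rodents many amacrine cells are still being made and placed around birth.

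The arrays were alike in scale, with medians between 5.9 and 6. Pool 3 of F344 hyperoxia and pool 3 of SD room air stood apart on the first principal component, which held 34.1% of the variance, with scores of 30.08 and 36.41 against at most -1.765 in the other 8. By the study's design text 1 array was added to each of these groups after such an analysis of the first 8, and the pools numbered 3 were taken to be the added ones, an inference from the numbering. In these pools the mean of 12 cell cycle genes was 8.96 and 8.88, the lowest of their groups, and the mean of 6 pigment epithelium genes was 6.42 and 6.30, the highest of theirs. The mean of 6 lens genes was highest in F344 hyperoxia pool 2, at 6.12, and in SD room-air pool 3, at 6.25, against 4.95 to 5.67 in the other 8. Pax6, a master regulator of retinal progenitors and amacrine cells, was bright in all pools (11.5 to 11.7), though 1 gene cannot bear out the retinal label.

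Gad1 and Gad2 encode the enzymes that make GABA from glutamate, and the RefSeq sequence before their starts is shown (build GRCr8, plus strand). Whether any motif marked in it has a part in their values was not tested. For Gad1 it is the 58 bases chr3:75777202-75777259, and for Gad2 the 250 bases chr17:89671468-89671717. In Gad1 the capitals mark TATAAA and a match to GCCNNNGGC, the palindrome bound by AP-2 factors such as Tfap2a and Tfap2b. In Gad2 they mark 2 matches to ACGTG, the core of the hypoxia response element, which reads CACGT on the strand printed.
Gad1: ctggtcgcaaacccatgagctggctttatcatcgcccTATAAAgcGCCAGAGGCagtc
Gad2: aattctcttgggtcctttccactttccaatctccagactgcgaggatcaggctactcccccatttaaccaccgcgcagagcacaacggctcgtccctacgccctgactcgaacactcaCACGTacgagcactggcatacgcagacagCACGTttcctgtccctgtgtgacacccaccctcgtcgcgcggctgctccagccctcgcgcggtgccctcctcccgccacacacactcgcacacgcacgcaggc
The motifs were searched on both strands and do not overlap each other in these stretches. Of 33469 windows of 300 bases around rat gene starts, 15.1% hold GCCNNNGGC, 19.3% hold ACGTG and 14.2% hold TATAAA. Windows were at hand for 5 of the 10 genes (Gad1, Gad2, Slc6a9, Ptf1a and Lhx1). Beyond the printed stretches, 1 match to GCCNNNGGC lies in the window of Gad2 and 1 in that of Lhx1, and 1 match to ACGTG lies in that of Gad1. Those of Gad2 and Gad1 lie past the listed gene start. The window of Gad1 begins only 58 bases before that start, so no more is printed. The windows of Slc6a9 and Ptf1a hold none of the 3 motifs.

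The GABA-synthesising enzymes come first. Gad1 read 8.7 and 8.7 in SD hyperoxia, 8.5, 8.5 and 8.2 in SD room air, 8.2, 8.5 and 8.0 in F344 hyperoxia, and 8.3 and 8.4 in F344 room air. Both SD hyperoxia pools lay above every other pool, and the other groups overlapped each other. The share of all genes with a group set apart like this was not counted. The same holds for Tfap2b, Lhx1 and Calb1 below. Gad2 read 7.9 and 7.8 in SD hyperoxia, 7.8, 7.7 and 7.5 in SD room air, 7.5, 7.7 and 7.3 in F344 hyperoxia, and 7.6 and 7.6 in F344 room air. Its order of group means was the same as that of Gad1, but SD hyperoxia touched SD room air at 7.8. In both genes the pool numbered 3 was the lowest of its group.

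Slc6a9 encodes the glycine transporter that glycinergic amacrine cells use to take up their transmitter. It read 8.2 and 8.2 in SD hyperoxia, 7.9, 8.1 and 8.2 in SD room air, 8.4, 8.4 and 8.3 in F344 hyperoxia, and 8.2 and 8.5 in F344 room air. The F344 hyperoxia pools all lay above the SD hyperoxia pools, while neighbours in the order of group means overlapped. Calb2 encodes calretinin, a calcium-binding protein of amacrine and ganglion cells. It read 10.3 and 10.2 in SD hyperoxia, 10.3, 10.5 and 10.6 in SD room air, 10.3, 10.1 and 10.7 in F344 hyperoxia, and 10.3 and 10.2 in F344 room air. All 4 groups of Calb2 overlapped, and the pools numbered 3 held its 2 highest values.

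Tfap2a and Tfap2b encode AP-2 transcription factors, which in the mouse are expressed in amacrine and horizontal cells after they leave the cell cycle. Tfap2a read 9.3 and 9.4 in SD hyperoxia, 9.2, 9.2 and 9.4 in SD room air, 8.9, 9.1 and 8.9 in F344 hyperoxia, and 9.0 and 9.2 in F344 room air. Every SD pool of Tfap2a was at or above every F344 pool, with a tie at 9.2 in room air. Tfap2b read 11.3 and 11.3 in SD hyperoxia, 11.1, 11.1 and 10.9 in SD room air, 11.0, 11.1 and 10.7 in F344 hyperoxia, and 11.1 and 11.1 in F344 room air. As with Gad1, both SD hyperoxia pools lay above all the others, and the remaining groups overlapped.

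Ptf1a encodes the basic helix-loop-helix factor that, in the mouse, commits progenitors to the amacrine and horizontal fates. It read 5.9 and 5.5 in SD hyperoxia, 5.9, 5.8 and 6.1 in SD room air, 5.6, 5.8 and 5.9 in F344 hyperoxia, and 5.6 and 5.8 in F344 room air. It lay below the array's median probe set in 7 of 10 pools, and its groups overlapped throughout. Lhx1, a LIM homeobox factor that places horizontal cells in their layer in the mouse, read 4.6 and 4.8 in SD hyperoxia, 5.1, 5.1 and 4.7 in SD room air, 4.4, 4.8 and 4.6 in F344 hyperoxia, and 4.9 and 4.9 in F344 room air. It was below the array median in all 10 pools, near the low end of the scale, where a signal is hard to tell from background. Both F344 room-air pools of Lhx1 lay above all 5 hyperoxia pools.

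Prox1 is a homeobox factor needed for horizontal cells in the mouse, and it is also made in the lens. It read 9.5 and 9.7 in SD hyperoxia, 9.7, 9.6 and 9.9 in SD room air, 9.8, 9.8 and 9.9 in F344 hyperoxia, and 9.6 and 9.9 in F344 room air. Its values spanned 0.4 over all 10 pools, the narrowest range of the 10 genes. Onecut1, which maintains horizontal cells in the mouse, read 6.7 and 6.6 in SD hyperoxia, 6.6, 6.4 and 6.6 in SD room air, 6.6, 6.9 and 6.8 in F344 hyperoxia, and 6.6 and 6.8 in F344 room air. Groups next to each other in the order of means overlapped in Prox1 and in Onecut1.

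**Figure D1:**
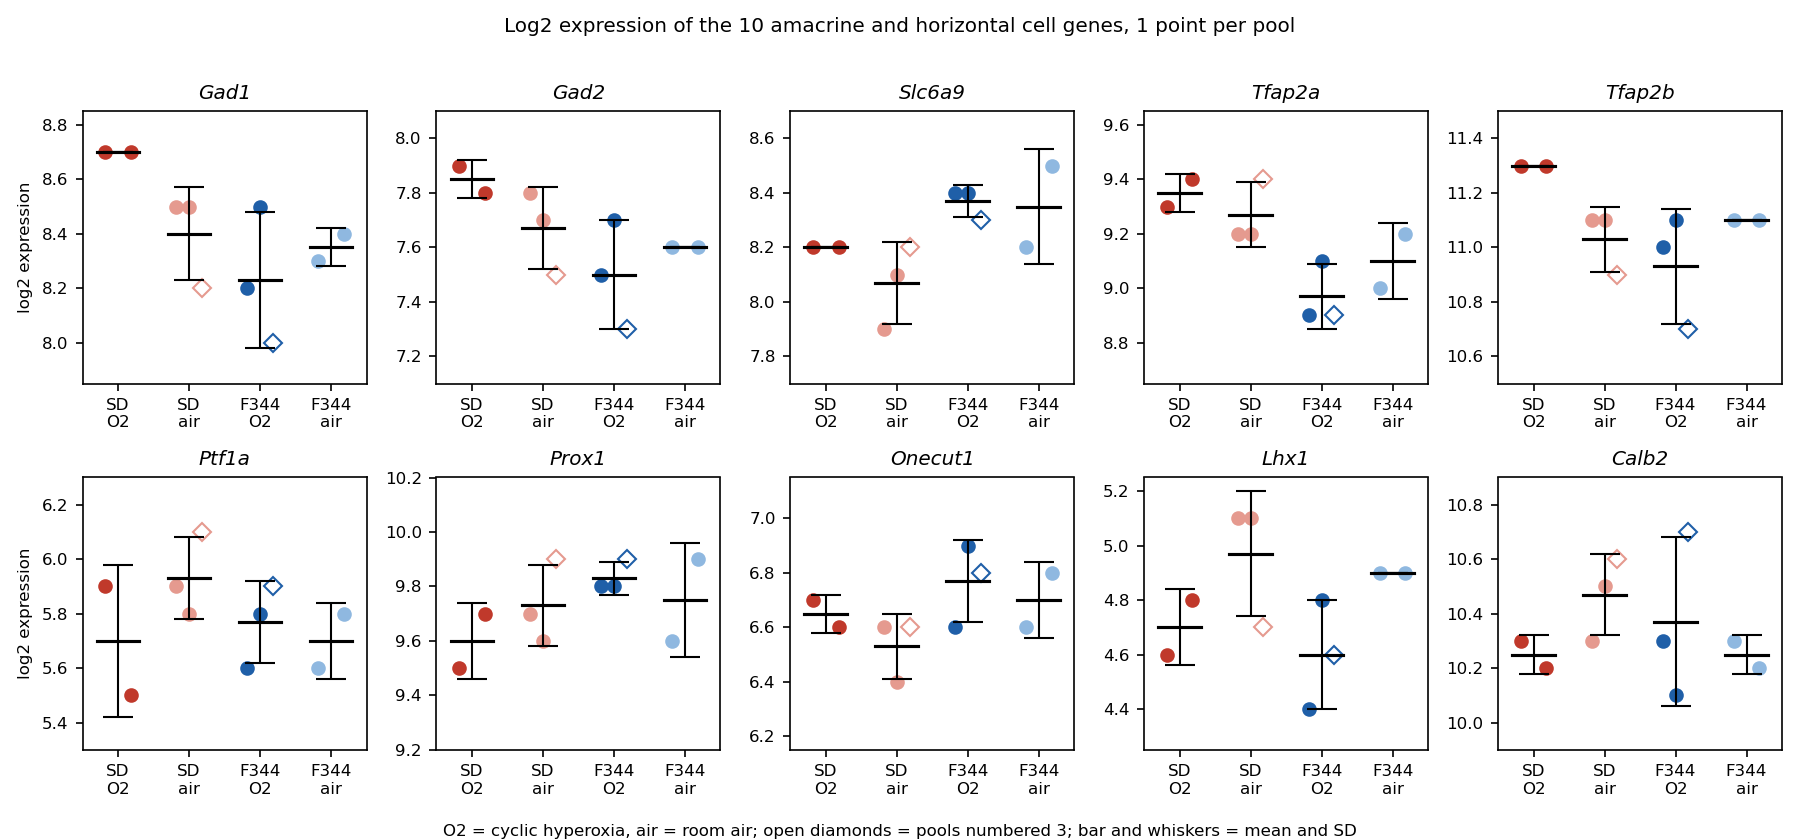
Log2 expression (y axis) of each of the 10 genes in the 4 groups (x axis: SD hyperoxia, SD room air, F344 hyperoxia, F344 room air). Each point is 1 pool, open diamonds are the pools numbered 3, and lines with whiskers are group means ± SD. Gad1 and Tfap2b have both SD hyperoxia pools above all others, at 8.7 and at 11.3, an order whose share over all genes was not counted.

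The first comparison asks what cyclic hyperoxia did to these genes in SD, the susceptible strain. The fitted difference, SD hyperoxia minus SD room air, was above 0 for 6 genes and below 0 for 4 (49.4% and 46.0% of all genes), with a median of 0.10 against 0.0 over all genes. For Gad1 it was 0.30 (SE 0.147, 95% interval -0.02 to 0.62), a fold of 1.23. For Tfap2b it was 0.27 (SE 0.127, interval -0.01 to 0.54), a fold of 1.20. In these 2 genes every SD hyperoxia pool lay above every SD room-air pool, which held for 6.67% of all genes, and in 0 of the 10 did every one lie below (7.34%).

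Gad2 differed by 0.18, Slc6a9 by 0.13, Onecut1 by 0.12 and Tfap2a by 0.08. Lhx1 differed by -0.27, Ptf1a by -0.23, Calb2 by -0.22 and Prox1 by -0.13. The values of Ptf1a and Prox1 rest on single pools: without SD hyperoxia pool 1 they were -0.43 and -0.03, and without SD hyperoxia pool 2 they were -0.03 and -0.23. None of the 10 passed limma's test (adjusted p 0.815 to 0.894), and 0 had an unadjusted p under 0.05 (4.68% of all genes). Of all genes, 0.0489% passed, all of them lower. Without the pools numbered 3, Gad1 differed by 0.20, and the groups of 4 genes lay apart upwards (Gad1, Slc6a9, Tfap2a and Tfap2b, against 11.2% of all genes) and that of Lhx1 downwards (11.5%). The 14 measured ganglion cell genes averaged 7.71 and 7.71 in SD hyperoxia, against 7.79 to 7.97 in SD room air, with 10 of 14 below 0. Their part in the values of Calb2, which ganglion cells also make, was not tested.

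In F344, the resistant strain, the fitted differences between hyperoxia and room air ran from -0.30 to 0.12 over the 10 genes, against -0.27 to 0.30 in SD. Lhx1 differed by -0.30 (SE 0.15, interval -0.63 to 0.03), a fold of 0.812, and its F344 hyperoxia pools all lay below its F344 room-air pools, as in 6.32% of all genes, while 0 of the 10 lay apart upwards (6.6%). The other 9 lay between -0.17, for Tfap2b, and 0.12, for Calb2. Gad1 differed by -0.12, Gad2 by -0.10 and Tfap2a by -0.13. The median was -0.04 against 0.0 over all genes. None of the 10 passed limma's test (adjusted p 0.921 to 0.974) and 0 had an unadjusted p under 0.05 (4.91% of all genes), while 0.00698% of all genes passed. Without the pools numbered 3, the F344 differences of Gad1 and Gad2 were 0.00 and 0.00.

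The test of whether SD responded otherwise than F344 is the effect in SD minus that in F344. It was 0.43 for Tfap2b (SE 0.18, interval 0.04 to 0.83, unadjusted p 0.033, adjusted p 0.651 by limma) and 0.42 for Gad1 (SE 0.208, interval -0.04 to 0.87, adjusted p 0.651). Gad2 gave 0.28, Tfap2a 0.22, Slc6a9 0.12, Onecut1 0.05 and Lhx1 0.03. Calb2 gave -0.33, Ptf1a -0.30 and Prox1 -0.22. None of the 10 passed, and 0.0% of all genes did. Tfap2b was the 1 gene of the 10 with an unadjusted p under 0.05, a mark that 6.98% of all genes reached. Without the pools numbered 3, the difference was 0.25 for Tfap2b, 0.20 for Gad1, 0.10 for Gad2 and -0.10 for Calb2.

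Averaged over both strains, the effect of hyperoxia was -0.28 for Lhx1 (SE 0.106, interval -0.51 to -0.05, unadjusted p 0.0204, adjusted p 0.99 by limma), a fold of 0.822. The other 9 genes lay between -0.08, for Ptf1a, and 0.09, for Gad1 and Onecut1. None of the 10 passed, against 0.0628% of all genes, and Lhx1 alone had an unadjusted p under 0.05, which 3.62% of all genes had. The intervals of the other 9 ran from -0.31 to 0.32. The 7 endothelial genes measured were all below 0 in this comparison, with a median of -0.39, and averaged 5.06 and 5.20 in SD hyperoxia against 5.36 to 5.79 in SD room air. In F344 they averaged 5.11 to 5.24 in hyperoxia against 5.33 to 5.63 in room air. Whether that has a part in the value of Lhx1 was not tested.

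**Figure D2:**
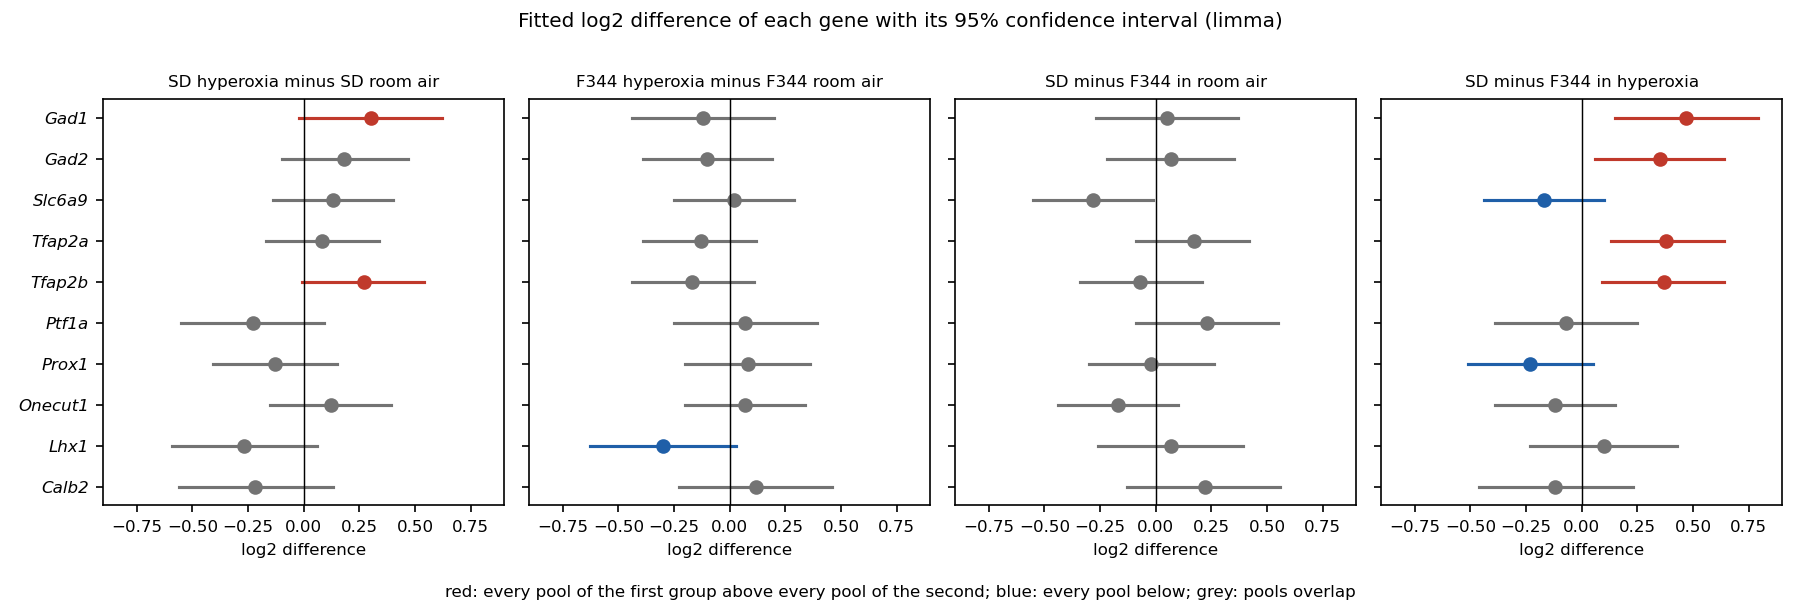
Fitted log2 difference of each of the 10 genes (x axis) with its 95% confidence interval, in 4 comparisons of the groups. Red marks genes whose pools in the first-named group all lie above those in the second, blue those that all lie below, grey those that overlap. In the panel of SD minus F344 in hyperoxia, Gad1 (0.47), Gad2 (0.35), Tfap2a (0.38) and Tfap2b (0.37) are red.

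Between the strains, 6 of the 10 genes had the pools of SD and F344 apart in hyperoxia and 0 had them apart in room air. Of all genes, 10.8% lay apart upwards in room air and 9.93% downwards. The test of that change is the difference of the effects above, in which none passed. The 0 rests on SD room-air pool 3: without the pools numbered 3, room air had 3 genes apart upwards (16.7% of all genes) and 1 downwards (15.5%). In hyperoxia, SD minus F344 was 0.47 for Gad1 (SE 0.147, interval 0.15 to 0.79, unadjusted p 0.00786), a fold of 1.38. It was 0.38 for Tfap2a (SE 0.118, interval 0.13 to 0.64, unadjusted p 0.00675), 0.37 for Tfap2b (SE 0.127, interval 0.09 to 0.64) and 0.35 for Gad2 (SE 0.132, interval 0.06 to 0.64). In these 4 genes every SD hyperoxia pool lay above every F344 hyperoxia pool, against 8.04% of all genes. In Prox1, at -0.23, and Slc6a9, at -0.17, every SD pool lay below, against 7.34% of all genes.

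The 4 genes above were also those with an unadjusted p under 0.05, a mark reached by 6.71% of all genes. After adjustment over all probe sets limma gave 0.404 for Gad1, 0.381 for Tfap2a, 0.511 for Tfap2b and 0.60 for Gad2, so none of the 10 passed, against 0.475% of all genes. Ptf1a, Onecut1, Lhx1 and Calb2 lay between -0.12 and 0.10. Without the pools numbered 3, Gad1 was at 0.35.

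In these hyperoxia pools, 11 of 12 cell cycle genes were above 0, where the median over all genes was 0.0. Their mean level was 9.37 and 9.33 in SD against 9.30, 9.38 and 8.96 in F344, the last in pool 3. Of 14 ganglion cell genes 12 were below 0, with mean levels of 7.71 and 7.71 in SD against 7.79 to 8.06 in F344. The 6 lens genes were all below 0, at 5.30 and 5.22 in SD against 5.07, 6.12 and 5.28 in F344, beside the value of Prox1. The part of these in the values of the 10 genes was not tested.

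In room air, SD minus F344 was -0.28 for Slc6a9 (SE 0.123, interval -0.55 to -0.01, unadjusted p 0.0402, adjusted p 0.413 by limma), a fold of 0.822. Leaving out F344 room-air pool 1 made the difference -0.43 and leaving out pool 2 of that group -0.13. The difference was 0.23 for Ptf1a, 0.22 for Calb2, 0.17 for Tfap2a and -0.17 for Onecut1, and between -0.07 and 0.07 for the other 5. Gad1 gave 0.05 (interval -0.27 to 0.37) and Tfap2b -0.07 (interval -0.34 to 0.21). No gene had its pools apart, against 10.8% of all genes apart upwards and 9.93% downwards. None of the 10 passed, against 0.552% of all genes, and Slc6a9 alone had an unadjusted p under 0.05, against 11.4% of all genes. Without SD room-air pool 3 and F344 hyperoxia pool 3, Gad1, Gad2 and Lhx1 lay apart upwards (16.7% of all genes) and Slc6a9 downwards (15.5%), at -0.35.

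Averaged over both exposures, Tfap2a had the lowest p-value of the 10 genes, with SD minus F344 at 0.28 (SE 0.0832, interval 0.09 to 0.46, unadjusted p 0.00618, adjusted p 0.201 by limma), a fold of 1.21. Gad1 gave 0.26, Gad2 0.21 and Slc6a9 -0.22, each with an unadjusted p under 0.05 and an adjusted p of 0.44, 0.528 and 0.413. None of the 10 passed, against 1.49% of all genes. The 3 with an unadjusted p under 0.05 and a value above 0 compare with 5.68% of all genes, and the 1 below 0 with 4.36%. The adjusted p of Tfap2a lay between 0.0867 and 0.615 over the alternatives tried, all of which kept the difference between 0.22 and 0.32.

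The pools numbered 3 differed from the other pools of their groups in some of these genes. A term for these 2 arrays was fitted beside the groups. By limma, Gad1 was lower in them by -0.32 (SE 0.0986, adjusted p 0.0419), Tfap2b by -0.28 (SE 0.0866, adjusted p 0.0495), and Calb2 higher by 0.35 (SE 0.107, adjusted p 0.0433). Gad2, at -0.28, had an adjusted p of 0.0647. These 3 of 10 compare with 16.1% of all genes, 7.39% higher and 8.73% lower.

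Within the groups, Gad1 in pool 3 was 0.35 below the mean of the others in F344 hyperoxia and 0.30 below it in SD room air. Tfap2a lay 0.10 below in F344 hyperoxia and 0.20 above in SD room air. Of 12 cell cycle genes 10 passed as lower in these pools, with a median of -0.45, and of 6 pigment epithelium genes 3 passed as higher. Their part in the values of Gad1, Tfap2b and Calb2 was not tested. The count of 3 was not stable: it was 2 without F344 hyperoxia pool 1, 1 without SD room-air pool 2, and 0 without any 1 of the other 8 arrays. With all arrays kept, it ran from 0 to 4 over the alternatives.

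**Figure D3:**
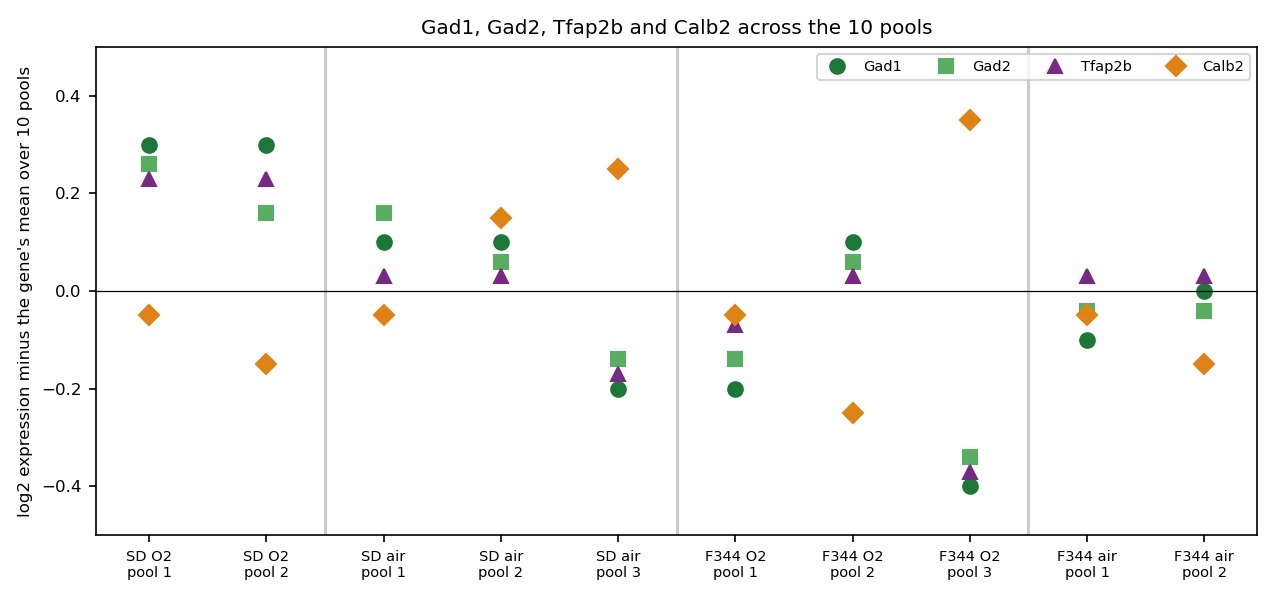
Log2 expression of Gad1, Gad2, Tfap2b and Calb2 minus each gene's mean over the 10 pools (y axis), pool by pool (x axis, grouped by strain and exposure). Gad1, Gad2 and Tfap2b lie highest in SD hyperoxia and lowest in F344 hyperoxia pool 3, where Calb2 is at its highest, 10.7.

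Across pools, Gad1, Gad2 and Tfap2b ran together, and Tfap2a ran with them in 8 of the 10. Over all 10 pools Pearson's r was 0.968 for Gad1 with Gad2, 0.946 for Gad1 with Tfap2b and 0.927 for Gad2 with Tfap2b. Within groups, after each group's mean was removed, these were 0.944, 0.927 and 0.928. Tfap2a gave 0.642 with Gad1, 0.599 with Gad2 and 0.541 with Tfap2b, and within groups 0.19, 0.0164 and 0.0708. Of the 45 pairs of the 10 genes, 3 had r above 0.8 and 26 had r below 0, with the lowest, -0.745, for Tfap2b and Calb2.

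The pools numbered 3 stand apart, so r is also given over the other 8. It was 0.934 for Gad1 with Gad2 (Spearman's rho 0.944), 0.903 for Gad1 with Tfap2b (rho 0.893) and 0.823 for Gad2 with Tfap2b (rho 0.833). Tfap2a then gave 0.931 with Gad1 (rho 0.893), 0.819 with Gad2 (rho 0.82) and 0.853 with Tfap2b (rho 0.887). These 6 pairs were the ones above 0.8, and 22 of the 45 were below 0, with Onecut1 and Calb2 lowest at -0.892. Without the 2 pools farthest from the median of the first-named gene, Gad1 with Gad2 gave 0.856, Gad1 with Tfap2b 0.949 and Gad1 with Tfap2a 0.791, but Gad2 with Tfap2b 0.548, Gad2 with Tfap2a 0.673 and Tfap2a with Tfap2b 0.632. Within groups the 6 pairs ran from 0.408, for Gad2 with Tfap2a, to 0.949, for Gad1 with Tfap2b. Over these pools Tfap2b varied within a group only in F344 hyperoxia, where it read 11.0 and 11.1. Its within-group r therefore rests on that pair of pools and cannot show that the genes ran together within groups. All these r values describe pools that share groups and arrays, with values to 1 decimal.

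The genes most like Gad1, the gene with the widest range of group means (0.47), were sought by Pearson's r over all 10 pools, which include the 2 that stand apart. They were Slc20a1, a phosphate transporter (0.978), Dcun1d2 (0.969), Gad2 (0.968), Slc35a3, a nucleotide sugar transporter of the Golgi (0.952), and Gpr21 (0.951). Slc20a1 read 10.7 and 10.6 in SD hyperoxia and 9.9 in F344 hyperoxia pool 3, its highest and lowest pools. Those most like the mean of the 10 standardised genes were Pcdh18, a protocadherin (0.906), Arhgap31 (0.899), Or12d13 (0.88), Lyzl1 (0.871) and St8sia1 (0.855). Or12d13 and Lyzl1 read at most 4.4, near the low end of the scale.

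Beyond the 10 genes, 9 of 10 further genes of GABA and glycine handling were measured. None passed in the comparisons of exposure or strain by limma. Slc6a11, a GABA transporter, had the lowest unadjusted p in SD, at 0.27 (SE 0.15, adjusted p 0.815), and differed between SD and F344 in hyperoxia by 0.40 (SE 0.15, adjusted p 0.595). Slc6a5, the neuronal glycine transporter, gave -0.18 in F344. Slc6a13, another GABA transporter, gave 0.33 for SD minus F344 averaged over exposures (SE 0.111, adjusted p 0.301). In the pools numbered 3, Abat, the enzyme that breaks GABA down, was lower by -0.40 (SE 0.118, adjusted p 0.038), and Slc32a1, which loads GABA and glycine into vesicles, was higher by 0.40 (SE 0.125, adjusted p 0.0479). These calls held in 7 and 5 of 16 alternatives. Of the 9 genes, 1 passed there as lower and 1 as higher, against 8.73% and 7.39% of all genes.

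Of the transcription factors that guide amacrine and horizontal fates, 20 of 23 were measured, and none passed in the comparisons of exposure. Neurod4, a basic helix-loop-helix factor, read 10.6 and 10.7 in SD hyperoxia, 10.9, 10.9 and 10.8 in SD room air, 11.2, 11.0 and 11.3 in F344 hyperoxia, and 10.8 and 10.7 in F344 room air. Its hyperoxia pools lay below room air in SD, as in 7.34% of all genes, and above it in F344, as in 6.6%. The difference of the effects was -0.63 (SE 0.16, unadjusted p 0.00186, adjusted p 0.651), and SD minus F344 in hyperoxia was -0.52 (SE 0.113, adjusted p 0.0944). Neurod4 is also expressed by bipolar and photoreceptor precursors in rodents.

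Between the strains 1 of the 20 factors passed, averaged over exposures, against 1.49% of all genes. Lhx9, a LIM homeobox factor, read 8.1 and 8.2 in SD hyperoxia and 7.7, 7.7 and 7.8 in F344 hyperoxia. In room air it read 8.2, 8.0 and 8.1 in SD and 7.9 and 7.6 in F344. All 5 SD pools lay above all 5 F344 pools, as in 1.28% of all genes. Averaged over exposures it was higher in SD by 0.38 (SE 0.0829, adjusted p 0.0435 by limma). That call held in 7 of 19 alternatives and was lost without any 1 of 8 arrays, all but F344 hyperoxia pool 3 and F344 room-air pool 1, with the difference between 0.31 and 0.46 and the adjusted p between 0.0122 and 0.267. Barhl2, an amacrine subtype factor, gave 0.38 in room air (SE 0.123, adjusted p 0.258). In the pools numbered 3, Foxn4 was lower by -0.40 (SE 0.0885, adjusted p 0.00953), Nhlh2 by -0.42 (SE 0.0971) and Meis1 by -0.33 (SE 0.086), calls that held in 13 or 14 of 16 alternatives. Of the 20 factors these 3 passed there as lower and 0 as higher, against 8.73% and 7.39% of all genes.

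Of 9 names listed for horizontal cell genes, 4 were measured, Calb1, Septin4, Tpm3 and Sostdc1. Sept4, an older name of Septin4, was among the names not found. None of the 4 genes passed in the comparisons of exposure or strain. Calb1, the calcium-binding protein calbindin, read 6.0 and 6.1 in SD hyperoxia, 6.1, 6.2 and 6.2 in SD room air, 5.9, 5.9 and 6.3 in F344 hyperoxia, and 5.7 and 5.7 in F344 room air. It was lowest in F344 room air, where both pools lay below all others. SD minus F344 in room air was 0.47 (SE 0.129, unadjusted p 0.00341, adjusted p 0.185). Sostdc1 gave -0.40 in SD under hyperoxia (SE 0.18, adjusted p 0.815) and was higher in the pools numbered 3 by 0.47 (SE 0.0986, adjusted p 0.00683). Of the 4 genes, 1 passed there as higher and 0 as lower, against 7.39% and 8.73% of all genes.

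Of the markers of amacrine subtypes 20 of 22 were measured, 9 of them below the array median in all pools. The neuropeptide gene Npy read 8.0 and 7.7 in SD hyperoxia, 8.2, 8.2 and 8.6 in SD room air, 7.2, 7.2 and 7.8 in F344 hyperoxia, and 7.2 and 7.1 in F344 room air. In room air the strains lay well apart, and in hyperoxia they met between 7.7 and 7.8. That meeting rests on F344 hyperoxia pool 3, at 7.8, since the other pools of that group read 7.2 and 7.2. Npy was higher in SD than in F344 in room air by 1.18 (SE 0.189, adjusted p 0.0124 by limma) and averaged over exposures by 0.82 (SE 0.133, adjusted p 0.00765).

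Both Npy calls held in 17 of 19 alternatives. The room-air call was lost without F344 room-air pool 1 and without pool 2 of that group, with an adjusted p of at most 0.275. The averaged call was lost without F344 room-air pool 2 and without SD hyperoxia pool 1, with an adjusted p of at most 0.0891. Npy was 1 of the 20 subtype markers that passed in each, against 0.552% and 1.49% of all genes. In SD under hyperoxia it gave -0.48 (SE 0.189, adjusted p 0.815), and the difference of the effects was -0.73 (SE 0.267, adjusted p 0.651). Over the 19 alternatives that difference lay between -0.88 and -0.4. The 10 photoreceptor genes measured were all above 0 for SD minus F344 in room air, at 8.77 to 9.27 in SD against 8.47 to 8.51 in F344, and their part in the value of Npy was not tested.

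None of the 20 subtype markers passed in the comparisons of exposure by limma. Sst, the neuropeptide somatostatin, gave 0.90 in F344 under hyperoxia (SE 0.305, adjusted p 0.921), where pool 3 read 8.9 beside 8.2 and 8.1, against 7.6 and 7.4 in room air. In the pools numbered 3, 7 of the 20 passed as higher and 2 as lower, against 7.39% and 8.73% of all genes. Pcp4, a calmodulin regulator, was higher by 1.23 (SE 0.105), Tac1, which encodes substance P, by 1.07 (SE 0.0971), and Sst by 0.93 (SE 0.11), each with an adjusted p of at most 0.000299. These 3 calls held in all 16 alternatives tried. Pvalb, the calcium-binding protein parvalbumin, was higher by 0.55 (SE 0.0993, adjusted p 0.00313).

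**Figure D4:**
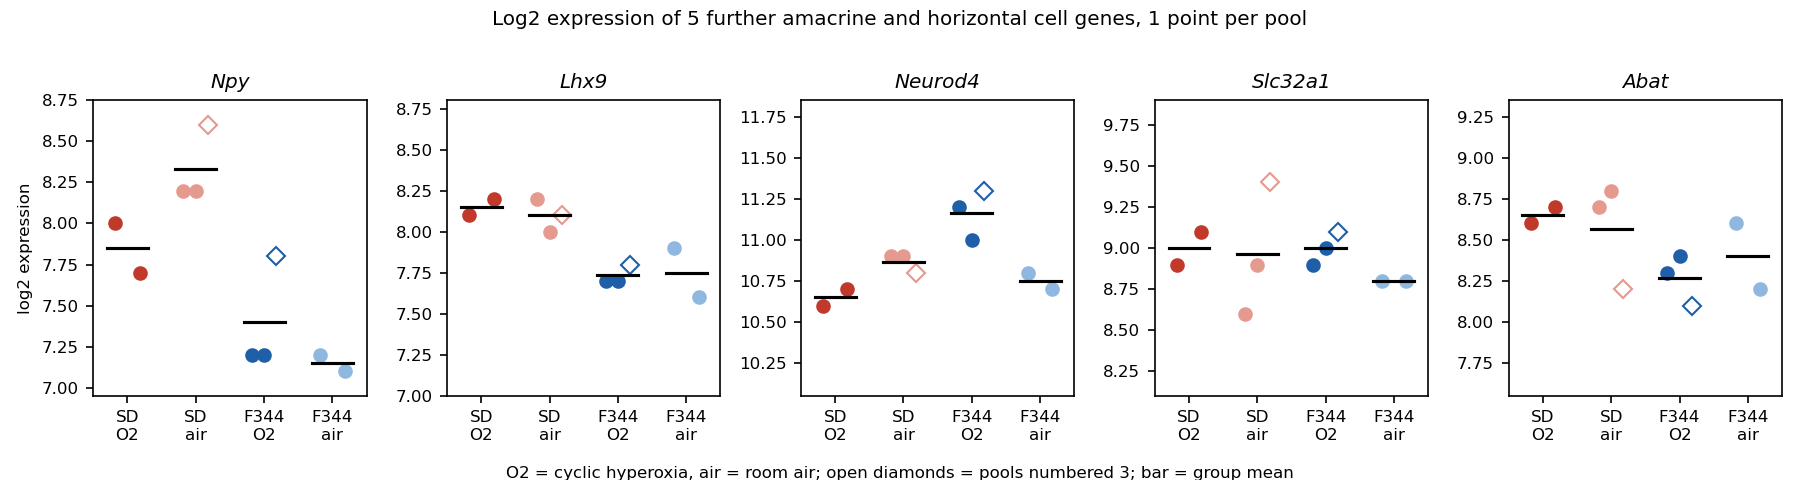
Log2 expression (y axis) of Npy, Lhx9, Neurod4, Slc32a1 and Abat in the 4 groups (x axis), with 1 point per pool, bars at group means and open diamonds for the pools numbered 3. Npy is between 8.2 and 8.6 in SD room air, against 7.1 and 7.2 in F344 room air.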

How the data were processed

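The authors deposited log2 expression values, 1 per probe set and array, rounded to 1 decimal and lying between 3.1 and 14. The submitters' processing notes name RMA and Partek 6.4 without saying what each did. How background was corrected, how arrays were scaled and which annotation was used is not given in the sources. Of 27342 probe sets, 15097 had 1 symbol in the platform annotation. A gene was read from its probe set with the highest mean. The members and gene lists were chosen with earlier results of these data known.

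Groups came from the sample titles and strain labels. All probe sets and all 10 arrays entered 1 limma model (limma 3.58.1, R 4.3.3) with a term for each group's mean, which left 6 residual degrees of freedom. Tests were two-sided after eBayes, p-values were adjusted by Benjamini-Hochberg across the 27342 probe sets, and an adjusted p under 0.05 counted as passed. The code was tested on simulated data. All 10 members were named in each comparison. Of each further list, up to 4 genes that passed were named by p, and otherwise up to 2 with the lowest p, some of which the text leaves out. The pool values of Neurod4 and Calb1 were picked for the text after they were seen. Precision is limited by the number of arrays, and signal over background was not analysed here. In the comparisons of 1 group with another, the deviations of same-numbered pools from their group means correlated between -0.0733 and 0.108. The replicate number was therefore no block in the model. The 3 such pairs of F344 hyperoxia and SD room air correlated at 0.314, 0.397 and 0.643, the last for the pools numbered 3. These groups stand on opposite sides only in the averaged comparisons, where that reason does not hold. With a replicate block, 271 genes passed as higher and 181 as lower in SD averaged over exposures, against 125 and 88 without. Alternatives covered moderation, normalization, centring, dim probe sets, the pools numbered 3, the replicate number, array weights, several probe sets of a gene, and each array left out.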

Additional observations from a re-analysis of the deposited data

How the results depend on the processing

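In the 7 comparisons of exposure and strain, 0 of the 10 genes passed under the main settings and under every alternative run, and the lowest adjusted p of any of them was 0.0867. A replicate block changed no such call and gave 0 in each. In some alternatives the median difference over the 10 genes moved by more than the SD, between pools within groups, of their mean level. For SD minus F344 in room air, where it was 0.06, it was 0.12 with a replicate block, 0.12 with a term for the arrays numbered 3 and 0.12 without them. For SD minus F344 in hyperoxia, where it was 0.02, it was 0.12 over brighter probe sets only, which drops Lhx1 and Ptf1a, and 0.08 without both arrays numbered 3. For the difference of the effects, where it was 0.08, it was 0.17 over brighter probe sets only. With each array left out in turn, the median ran from -0.12 to 0.02 in F344, from 0.00 to 0.21 for the difference of the effects, from 0.00 to 0.12 between strains in room air and from -0.07 to 0.08 between strains in hyperoxia. The term for the arrays numbered 3, for which 3 of the genes passed, gave 0 to 2 with each array left out. Over the other alternatives it gave 0 to 4, with 0 under a replicate block. The alternatives for that term, those for the further genes and the overlap without both arrays were chosen after seeing the data. The cause of these changes was not tested, and some of the settings use fewer genes or arrays. With 2 or 3 pools a group and values to 1 decimal, intervals of the 10 genes reached 0.87 in size, so small differences were not detectable.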
